A study of Gossypium hirsutum with 4 samples.

Results

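Places in upland cotton chromatin where both of the study's FLAG immunoprecipitates gave a strong peak, but the one labelled D53 scored far below the one labelled B, are described here. A member is a D53 peak and a B peak with at least 1 bp in common with a geometric mean score of at least 100 and a log2 ratio (D53 over B) below -1.5. Pairs whose D53 midpoint fell in 8 chromosome regions crowded with peaks were left out (A05 62.1 to 62.4, A07 66.3 to 66.4, A07 68.6 to 68.9, D05 46.4 to 46.6, D06 6.8 to 6.9, D06 18.8 to 18.9, D08 15.4 to 15.5 and D12 37.3 to 37.4 Mb). The rule kept 331 of the 8127 overlapping pairs, made of 328 D53 and 323 B peaks. The members were chosen by both scores of each pair, so every score and score ratio of a member is a description, with no test. In all, 13.5% of overlapping pairs had a log2 ratio below -1.5, with 56.7% among pairs of geometric mean 100 or more and 8.93% among the weaker pairs. The deposited lists themselves held 18015 D53 and 19400 B peaks.

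The study made 4 libraries from leaves of Gossypium hirsutum: the D53 immunoprecipitate, its input chromatin, the B immunoprecipitate and its input, 1 library each. The antibody named for all 4 was against FLAG, a short epitope tag added to a protein so that 1 antibody can recover it. No genotype, promoter of a tagged gene, plant age or treatment is given for either plant material, and the sources used here do not say what B stands for. The score is the authors' own whole number per peak, of unstated definition, and read depth is unknown, so a low D53 score beside a high B score compares 2 lists and not 2 levels of binding.

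D53 proteins are repressors of the strigolactone pathway, first described in rice, with close relatives named SMXL in Arabidopsis. When the hormone is perceived by its receptor D14, an F-box protein marks D53 for degradation. While present, D53 recruits TOPLESS-type corepressors to target genes, and chromatin immunoprecipitation asks where in the genome it sits. Upland cotton carries an A and a D subgenome that descend from different diploid ancestors. An assembly of such a genome leaves many pieces, called scaffolds, without a place on a chromosome. Some scaffolds are assigned to a chromosome without a position on it, which their names show (scaffold4312_D08), and the others are unplaced.

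The members' scores formed a narrow band. D53 scores had a median of 72 (quartiles 61 and 96, range 19 to 171), while B scores had a median of 302 (quartiles 251.5 and 391.5, range 179 to 663). Their log2 ratio had a median of -2.02 (quartiles -2.18 and -1.86), so the B score was a median of 4.06 times the D53 score, and 4.06 changed only to 4.07 among the 296 members whose peaks each had a single partner. Of the 331 members, 314 had a ratio of -2.5 or above. Over all overlapping pairs the median log2 ratio was -0.68.

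The band stood apart from the other strong pairs, as the plot of scores shows. Outside the 8 regions, the bins of 0.25 from -2.25 to -1.75 held 119 and 123 strong pairs. The bins between -1.5 and -1 held 10 and 18, and the bin from 0.00 to 0.25 held 97. In what follows, the 263 strong pairs with a log2 ratio above -0.5 are called near-equal pairs, and 73 further strong pairs lay between both bounds. The near-equal set has no upper bound, and its ratios ran from -0.49 to 1.53 (quartiles -0.09 and 0.28). Near-equal pairs had a similar geometric mean (median 150 for members, 153 for near-equal pairs) but higher D53 and lower B scores, with medians of 161 and 139. Of the 100 highest D53 peaks, 0 belonged to a member and 97 to a near-equal pair, which largely follows from the rule, since a member needs a B score far above its D53 score. Of the 100 highest B peaks, 74 belonged to a member, 22 lay in the 8 regions and 3 belonged to a near-equal pair. This too follows in part from the rule, which favours high B scores. Over the whole B list, 323 of 19400 peaks belonged to a member.

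**Figure D1:**
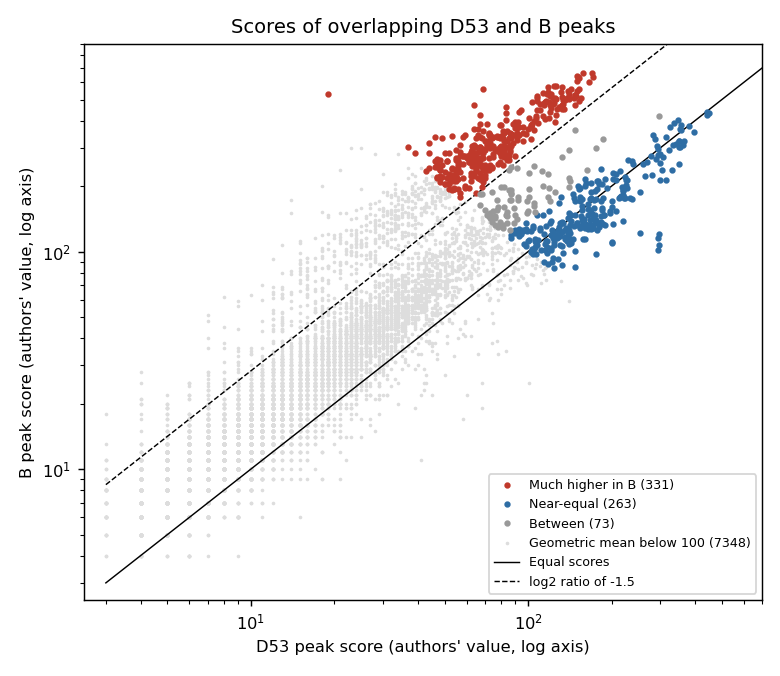
Score of the D53 peak (horizontal, log axis) against that of the B peak (vertical, log axis) for each overlapping pair, with members in red, near-equal pairs in blue, pairs between the bounds in dark grey and pairs with a geometric mean below 100 in light grey. Strong pairs in the 8 left-out regions are not drawn. The 331 members lie along a band above the dashed line of log2 ratio -1.5, apart from the 263 near-equal pairs along the line of equal scores.

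The strongest members were on scaffolds. On unplaced scaffold5094 a D53 peak with a score of 170 ran from 12512 to 21680, and its B partner, from 12516 to 21684, had the highest score in the B list, 663. On scaffold8121 the pair at 3476 to 3983 had scores of 171 for D53 and 633 for B, and on scaffold4992 the pair at 25381 to 28735 had 158 for D53 and 660 for B. The D53 values here are well above the median of that list, 8, so these sites were also prominent in the D53 list. The other 7 of the 10 members with the highest geometric mean were on scaffold12662 (166 for D53, 605 for B), scaffold9897 (153 and 630, in the same order), scaffold4312_D08 (150 and 639), scaffold2434_A09 (151 and 633), scaffold6770 (152 and 557) and scaffold11622. Scaffold11622 held 2 of them, because 1 D53 peak with a score of 150 overlapped B peaks with scores of 606 and 547. All 10 had log2 ratios between -2.09 and -1.87.

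The median ratio of members varied little with strength or place. This follows in part from the rule, which keeps every member's ratio below its ratio bound. Members with a geometric mean of 100 up to 150 had a median log2 ratio of -2.07 (164 pairs), those of 150 up to 200 had -2.0 (92 pairs), and those of 200 upwards had -1.96 (75 pairs). The SDs of these ratios were 0.35, 0.25 and 0.16 in the same order, so the spread fell with strength. Over the 331 members the ratio had a Spearman rho of 0.15 with geometric mean and 0.36 with D53 width. These pairs share libraries and sequences. By class the medians were -2.02 on unplaced scaffolds, -2.01 on scaffolds named after a chromosome and -2.10 on chromosomes. The extreme low ratio, -4.80, belonged to a D53 peak of score 19 at 152041 to 152612 on scaffold1038_A05, which shared a B peak of score 530 with a second D53 peak of score 140, so a fragment was set against a whole peak. Among pairs without a second partner the lowest ratio was -3.04, on scaffold56179, with scores of 37 for D53 and 304 for B. The third lowest over all members, -3.01, was on scaffold6770, where a D53 peak of score 69 shared its B peak of score 557 with the D53 peak of score 152 named above.

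Values near the bounds of the rule differed little across them. Just inside the score bound, the pair at 2185 to 2504 on scaffold6380 had scores of 48 for D53 and 209 for B, a geometric mean of 100.16. The other member nearest that bound was the fragment on scaffold1038_A05, at 100.35. Just outside it, the pair at 173 to 476 on scaffold81754 had 45 for D53 and 222 for B, a geometric mean of 99.95, and a pair on scaffold1038_A05 reached 99.85. Just inside the ratio bound, scaffold11777 had a pair with scores of 65 for D53 and 186 for B (log2 ratio -1.52) and scaffold4312_D08 one with 68 for D53 and 198 for B (-1.54). The next highest ratio among members was -1.59, on scaffold5613, with 69 for D53 and 208 for B. Just outside it lay 2 pairs on scaffold1038_A05, with 87 for D53 and 245 for B (-1.49) and 85 for D53 and 238 for B (-1.49).

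Most members lay on DNA without a chromosome position. Unplaced scaffolds held 231 of 331 members, or 69.8% (Wilson 95% interval 64.6 to 74.5), against 42.2% of near-equal pairs (36.4 to 48.2) and 37.7% of all overlapping pairs outside the 8 regions (36.6 to 38.8). Scaffolds named after a chromosome held 80 members, or 24.2% (19.9 to 29.1), against 14.4% of near-equal pairs (10.7 to 19.2). The 26 chromosomes held 20 members, or 6.04% (3.95 to 9.15), against 43.3% of near-equal pairs (37.5 to 49.4). These intervals cover the counting of pairs only. Neighbouring pairs are not independent, the members share 2 libraries, and no test of the difference was made. Leaving out the 8 regions lowers the chromosome share by construction. With their pairs kept there would be 442 members, those added all on chromosomes, and 52.3% of the members would be on unplaced scaffolds. The 112 strong pairs in these regions had log2 ratios of at most -0.94, so keeping them would add no near-equal pair. Members on chromosomes would then no longer be fewer than near-equal pairs there. Counted once per sequence, 89.0% of the 127 sequences with a member were unplaced scaffolds. Scaffolds of either kind made up 121 of these 127 sequences, against 88 of the 108 sequences with near-equal pairs. With only 26 chromosomes, a count per sequence favours scaffolds in both.

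**Figure D2:**
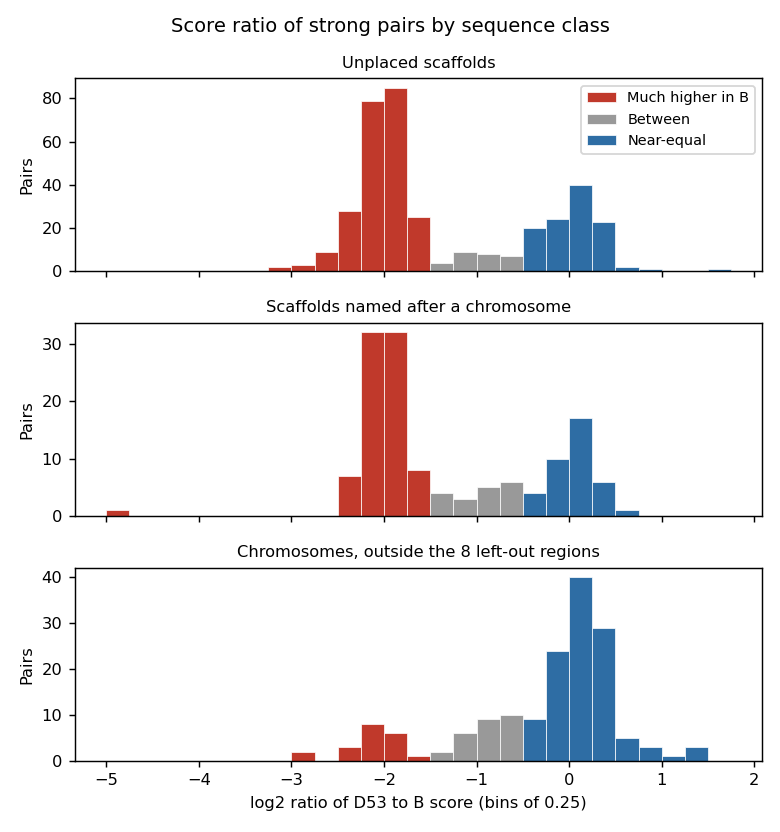
Number of strong pairs (geometric mean score of at least 100, outside the 8 left-out regions) by log2 ratio of D53 to B score in bins of 0.25, for unplaced scaffolds, scaffolds named after a chromosome and chromosomes. Members (red) outnumber near-equal pairs (blue) on both kinds of scaffold, with 231 against 111 and 80 against 38. Chromosomes outside the 8 regions held 20 members against 114 near-equal pairs. The 112 strong pairs inside those regions, with a median log2 ratio of -2.0, are not drawn.

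The split between subgenomes depended on a few scaffolds. Among the 100 members whose sequence carries a chromosome name, 55 were in A (55.0%, Wilson 95% interval 45.2 to 64.4), against 74.3% of near-equal pairs (66.9 to 80.6) and 75.3% of all overlapping pairs outside the 8 regions (74.1 to 76.5). On chromosomes proper, 9 of 20 members were in A, and on named scaffolds 46 of 80. Of the 45 members in D, 32 were on scaffold4312_D08. Without that scaffold the A share was 80.9%, and without all 6 sequences with over 10 members, among which scaffold1038_A05 and scaffold2434_A09 are in A, it was 53.6%. The last share rests on few members, since 86.7% of the 210 then left were on unplaced scaffolds. With each sequence counted once the A share was 64.3%. By chromosome name, members counted 37 for D08, 23 for A05, 22 for A09, 6 for A12, 5 for D12, 3 for D06, 2 for A07 and 1 each for A08 and A11, and the other 17 names had no member.

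Members were spread unevenly over sequences. The 331 members lay on 127 sequences, namely 113 unplaced scaffolds, 8 named scaffolds and 6 chromosomes. A single member was present on 84 of them, while 6 sequences had over 10 members each and held 121 together. Near-equal pairs lay on 108 sequences, with at most 17 on any. The mean per sequence was 2.61 members and 2.44 near-equal pairs, and the median was 1 in both. Within 5 kb of another member, measured between D53 midpoints, lay 61.3% of members (Wilson 95% interval 56.0 to 66.4), against 45.6% of near-equal pairs near another of their kind (39.7 to 51.7). The share for members was 47.6% without the 6 fullest sequences, and 29.1% of the 127 sequences held a pair of members so close. A short scaffold has no room for a neighbour, and sequence lengths were not used here. On scaffolds, the gap between the midpoints of neighbouring members had a median of 2485 bp (quartiles 1391 and 5848), longer than the 1829 bp (1011 and 3896) between neighbouring near-equal pairs.

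The 5 sequences with the most members were scaffold4312_D08 with 32, scaffold1038_A05 with 21, unplaced scaffold4807 with 20, scaffold2434_A09 with 19 and unplaced scaffold4830 with 16. On scaffold4312_D08 the members ran from 8016 to 91713. Their D53 scores were 55 to 150 (median 81.5) and their B scores 198 to 639 (median 336.5), with a median log2 ratio of -2.09 and an SD of 0.15 over the 28 pairs without a second partner. Neighbouring members there were a median of 1905 bp apart. The weaker pairs of the same scaffold, 24 in number, had D53 scores of 13 to 43 and B scores of 58 to 206, with a median log2 ratio of -2.25. Thus weak and strong peaks of this scaffold differed between the lists by nearly the same factor, and 23 of its 24 weaker pairs were also below -1.5.

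**Figure D3:**
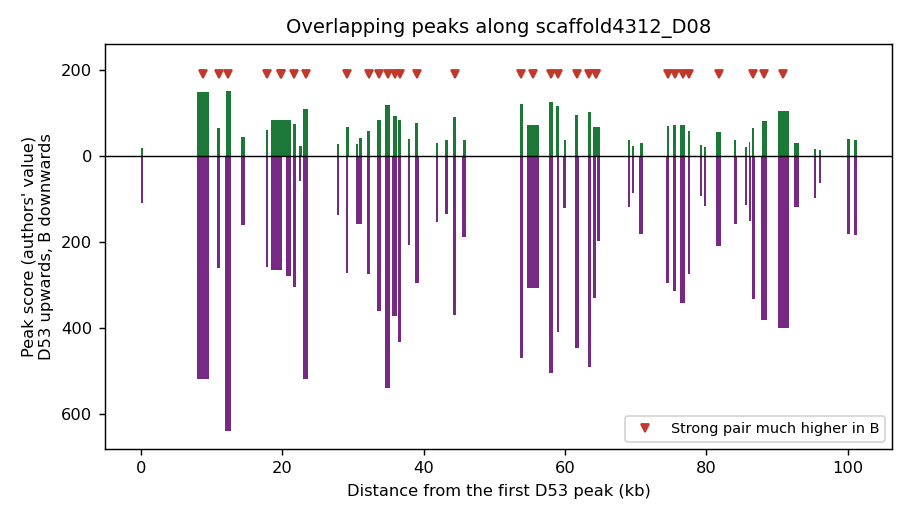
Overlapping peaks along scaffold4312_D08, drawn as boxes from peak start to peak end, with the D53 score upwards and the B score downwards, against the distance from the first D53 peak in kb. Triangles mark the 32 members. Peaks without a partner are not drawn. The tallest peaks reach 150 for D53 and 639 for B.

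The other 4 sequences had members of similar median ratio over longer or shorter stretches. The rule's ratio bound limits in part how far such medians can differ. On scaffold1038_A05 the members extended from 150226 to 378721, with D53 scores of 19 to 140 and B scores of 217 to 570 and a median log2 ratio of -1.98. On scaffold2434_A09 they extended from 349 to 381822, with D53 scores of 49 to 151, B scores of 197 to 633 and a median of -1.94. On scaffold4807 they ran from 1797 to 77565, with D53 scores of 43 to 135, B scores of 235 to 534 and a median of -1.94. On scaffold4830 they ran from 2120 to 58665, with D53 scores of 50 to 155, B scores of 194 to 523 and a median of -2.02. Over the 16 sequences with 5 or more members the medians lay between -2.30 and -1.86, with an SD of 0.12 between sequences. Within a sequence, pairs without a second partner had an SD of 0.05 to 0.29 (15 sequences). Sequences with 1 member had a median log2 ratio of -2.09 over 84 values.

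No scaffold carried both members and near-equal pairs. Of 241 scaffolds with any strong pair, 121 had members and 88 had near-equal pairs, and 0 had both. The remaining 32 had only pairs between the bounds. A scaffold with a single strong pair cannot hold both kinds, and most of the 241 were of that sort. On the 121 scaffolds with members, 311 of 320 strong pairs were members, and the other 9 had log2 ratios of -1.49 to -0.83. Among scaffolds with 2 or more strong pairs, 31 held members alone, 7 held members and pairs between the bounds, 25 held near-equal pairs alone and 4 held near-equal pairs and pairs between the bounds. On chromosomes, which are far longer, both kinds occurred on the same sequence, for example 6 members and 13 near-equal pairs on A12.

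The weaker pairs of the same scaffolds, with a geometric mean below 100, were outside the rule's score bound. They numbered 289 on 45 of the 121 scaffolds, and 256 of them, or 88.6% (Wilson 95% interval 84.4 to 91.8), had a log2 ratio below -1.5. Over all scaffolds, 10.1% of weaker pairs did. On scaffolds without members it was 148 of 3699, or 4.00% (3.42 to 4.68). The median log2 ratio of weaker pairs was -2.03 (quartiles -2.30 and -1.78) on scaffolds with members, -0.65 (quartiles -0.93 and -0.36) on scaffolds without members and -0.27 on scaffolds with near-equal pairs (49 pairs on 25 scaffolds). The medians also differed at like strength. With geometric means of 20 up to 50, the median was -2.06 for 86 pairs on scaffolds with members and -0.68 for 1339 pairs on the other scaffolds. With 50 up to 100 it was -2.04 for 194 pairs and -0.77 for 420 pairs. Below 20 it was -1.42 for only 9 pairs, against -0.58 for 1940 pairs. These pairs come from the same 2 libraries and the same contrast as the rule, so the values are a description.

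**Figure D4:**
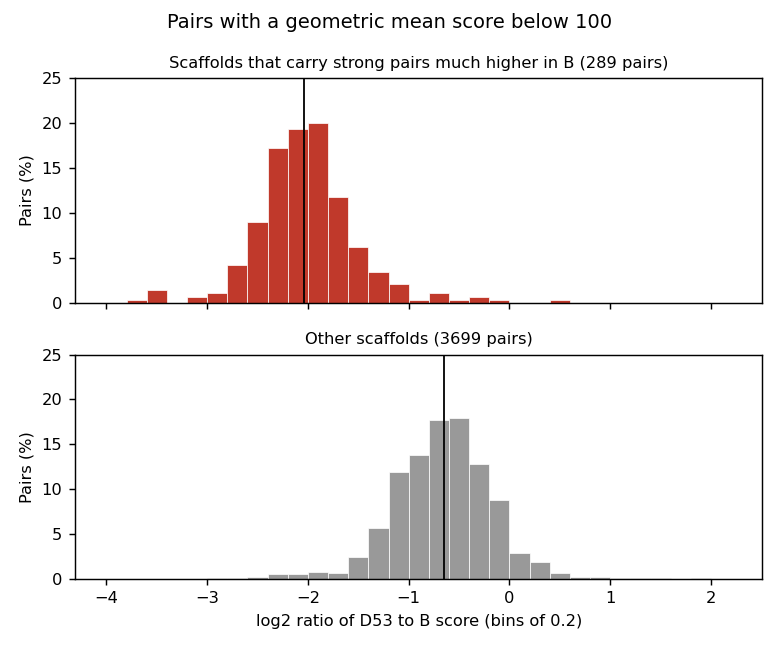
Percentage of pairs with a geometric mean score below 100 by log2 ratio of D53 to B score in bins of 0.2, on scaffolds that carry members (top, 289 pairs) and on other scaffolds (bottom, 3699 pairs). Vertical lines mark the medians of -2.03 and -0.65.

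Of the 45 scaffolds, 43 had a median below -1.5 for their weaker pairs. The rest had 1 weaker pair each: it had a log2 ratio of 0.60 on scaffold11777 and of -1.34 on scaffold6653. The pair on scaffold11777 was no separate site, as it set a member's D53 peak, at 1803 to 2804, against a second B peak. On 76 of the 121 scaffolds the members were the only overlapping pairs. Nearly every D53 peak on scaffolds with members had a B partner, 597 of 607 or 98.4% (Wilson 95% interval 97.0 to 99.1), against 47.8% of D53 peaks on other scaffolds (46.7 to 48.9). For B peaks it was 595 of 683, or 87.1% (84.4 to 89.4), against 42.8% (41.8 to 43.8). The choice of scaffolds by a shared pair raises both shares. The 10 D53 peaks without a partner on these scaffolds had a median score of 6.5 (3 to 23), and the 88 B peaks without one had a median of 38.5 (5 to 110), against medians of 6 for D53 and 10 for B on the other scaffolds.

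The 20 members on chromosomes fell into few places, and 12 of them lay within 20 kb of a left-out region. On D08, 5 members stood from 15504132 to 15517056, just past the region that ends at 15.5 Mb, where D53 scored 147, 143, 91, 63 and 67, against 524, 560, 335, 259 and 291 for B. On D06, 3 members stood from 6900481 to 6909555, with D53 scores of 72, 64 and 114, against B scores of 322 for the first and 471 for a single B peak shared by the others. On D12, 3 members stood from 37289344 to 37292171, before the region that begins at 37.3 Mb, where D53 scored 93, 75 and 77, against 438, 280 and 295 for B. On A05 the pair at 62097979 to 62098679, with 51 for D53 and 218 for B, had its midpoint 1.67 kb before the region that begins at 62.1 Mb. The strong pairs inside the 8 regions, which are not members, had a median log2 ratio of -2.0 (112 pairs), close to that of the members.

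The other 8 chromosome members were on A12, A08 and A05. On A12, 6 members stood between 41326211 and 41340727. The D53 peak at 41326211 to 41326679 scored 121, against 528 for B, and that at 41338834 to 41339143 scored 69, against 359 for B. The other 4 were D53 peaks that shared 2 wide B peaks, with D53 scores of 48 and 48 against a B score of 237, and of 46 and 78 against a B score of 336. On A08 the pair at 59246184 to 59246710 had 119 for D53 and 410 for B, and on A05 the pair at 50232539 to 50233448 had 61 for D53 and 196 for B. The 5 chromosome members with the highest geometric mean were those of D08 at 15508487 (143 for D53, 560 for B), D08 at 15504132 (147 and 524, in the same order), A12 at 41326211 (121 and 528), D06 at 6908684 (114 and 471) and A08 at 59246184 (119 and 410).

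Around the chromosome members the ratio was also low in weaker pairs. Within 50 kb of a member and outside the 8 regions there were 15 weaker pairs, with a median log2 ratio of -1.90, of which 12 were below -1.5. Farther away on chromosomes the median was -0.58 over 3173 pairs, of which 92, or 2.90%, were below -1.5, while over all weaker pairs on chromosomes, the 8 regions included, the share was 7.5%. Around the 8 members that were not next to a left-out region, the median was -1.74 over 6 weaker pairs. No near-equal pair was found within 50 kb of any chromosome member (0 pairs). All chromosomes together held only 114 near-equal pairs, and the members stood in few places, so this absence says little.

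Member peaks were wide, and their edges matched closely between the lists. The D53 peaks of members had a median width of 560 bp (quartiles 382 and 866.5), against 369 bp (284.5 and 644) in near-equal pairs and 271 bp over the whole D53 list. The B peaks of members had a median width of 590 bp (394 and 953.5), against 353 bp (265 and 601) in near-equal pairs and 252 bp over the whole B list. At a geometric mean of 100 up to 150 the D53 medians were 462 bp in members and 311 bp in near-equal pairs, and the B medians 476 bp and 306.5 bp. At 200 upwards they were 704 bp and 521.5 bp for D53 and 719 bp and 626 bp for B. The narrowest member peaks were 268 bp for D53 and 270 bp for B, against 200 bp and 188 bp among near-equal pairs. Quartile ranges of members and near-equal pairs overlapped in each list, and the difference was not tested. Width was not part of the rule, but it depends on the same signal as the score, and it rose with strength in both kinds of pair (Spearman rho of D53 width with geometric mean 0.39 over 331 members and 0.38 over 263 near-equal pairs, across pairs that share libraries and sequences).

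**Figure D5:**
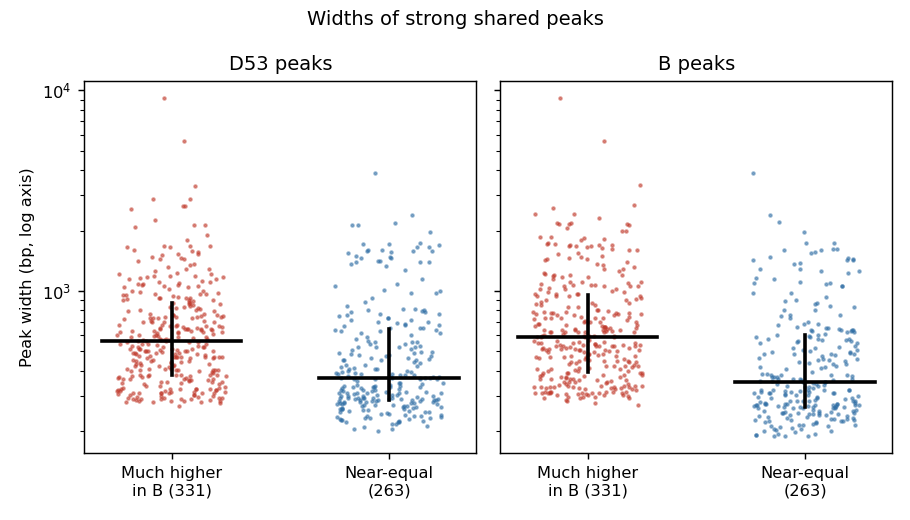
Width of each D53 peak (left) and B peak (right) in members and near-equal pairs, in bp on a log axis; horizontal lines are medians and vertical lines run between quartiles. Members have higher medians in both lists, 560 against 369 bp for D53 and 590 against 353 bp for B, with overlapping ranges.

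Very wide peaks were few. A D53 width of 2000 bp or more occurred in 12 of 331 members and 5 of 263 near-equal pairs. These are counts of pairs, and wide D53 peaks on scaffold11622 and scaffold4312_D08 each counted in 2 members. The widest D53 peak of a member was that of 9169 bp on scaffold5094, equal in width to its B partner, followed by 5574 bp on scaffold9897 and 3355 bp on scaffold4992, which were also among the 10 strongest members. The widest D53 peak of a near-equal pair had 3860 bp. On scaffolds, 63 of 311 members and 35 of 149 near-equal pairs had a D53 peak that began in the first 200 bp, where a peak can be cut off by the scaffold's end.

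In members without a second partner the starts of both peaks differed by a median of 12 bp and the ends by 13 bp, against 19 and 23 bp in near-equal pairs. The shared stretch made up a median of 94.7% of the stretch covered by either peak (quartiles 91.5 and 97.1), against 88.1% (76.1 and 93.3) in near-equal pairs. The B peak was the wider one in 71.3% of all members (Wilson 95% interval 66.2 to 75.9) and in 39.9% of near-equal pairs (34.2 to 45.9), although the difference in members was small, with a median of 17 bp. In members the B peaks were thus slightly wider, at nearly the same positions. Over all overlapping pairs the B score was mostly the higher one (median log2 ratio -0.68), yet the B peak was the wider one in only 46.1%. Second partners occurred in 35 members (296 of 331, or 89.4%, had none), against 91.6% of near-equal pairs without one.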

How the data were processed

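Per the peak names in the lists, the authors set each immunoprecipitate against the input of the same label, without pooling, and deposited 1 list per immunoprecipitate. The deposited value of each peak was used as the authors' score, without rescaling. The sources used here do not give its meaning, the genome build, the aligner, the peak caller or the calling threshold. The depth of the 4 libraries is unknown. Positions are in the lists' own coordinates. Starts were taken to count from 0, as in BED files, which no source states, and are printed 1 higher than deposited. No genome or gene table of that assembly was used here, so no gene is named and no sequence printed.

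Peaks were paired when they shared at least 1 bp, which gave the 8127 pairs that bedtools 2.31.1 also found. The pairing and the member rule recovered 200 planted members in simulated lists. Sequences were classed by name as chromosomes (A01 to D13), scaffolds with a chromosome suffix, or unplaced scaffolds. Shares carry Wilson 95% intervals, which cover counting error only. No test was run: each group has 1 library, and the scores chose the members. Members and comparisons were chosen with earlier results of these data known. Pairs named are the 10 strongest, all on chromosomes, the 5 fullest sequences, the extreme ratios and those beside each bound. SciPy 1.17.1, pandas 2.3.3 and NumPy 2.4.6 ran under Python 3.11.15, with figures from matplotlib 3.10.9.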

Additional observations from a re-analysis of the deposited data

How the results depend on the processing

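Each of 8 summary values was recomputed under 12 alternatives. Of the 96 values, 69 stayed within the 95% interval of the reported value, or within 1.5 times the reported count, 27 moved beyond it and 0 changed sign. Counts, shares and widths cannot change sign, and the rule fixes the sign of the members' median ratio. Only the median of the weaker pairs could have changed sign. The 50% rules and the 200 bp midpoint rule moved none. The median log2 ratio of weaker pairs stayed between -2.07 and -2.02 throughout. Keeping only pairs without a second partner changed 1 value, the share within 5 kb of another member, to 55.7%. With a geometric mean of at least 50 there were 569 members, with median D53 and B widths of 432 and 472 bp and 72.8% within 5 kb. With at least 200 there were 75 members, 64.0% of them on unplaced scaffolds, with a median log2 ratio of -1.96, D53 and B widths of 704 and 719 bp and 40.0% within 5 kb. With a log2 ratio below -2 there were 174 members, with a median of -2.17, D53 and B widths of 469.5 and 486 bp and 46.55% within 5 kb. Members fewer or more by construction have fewer or more neighbours, and width rises with score. With pairs in the 8 regions kept, 52.3% were on unplaced scaffolds. Counting each sequence once gave 127 sequences, 89.0% of them unplaced scaffolds, D53 and B widths of 508 and 526 bp, and 29.1% with members within 5 kb. Without scaffold4312_D08 the unplaced share was 77.3% and the A share 80.9%. Without the 6 sequences with over 10 members, an alternative added after seeing the data, 210 members were left, 86.7% of them on unplaced scaffolds and 47.6% within 5 kb, with an A share of 53.6%. No paired analysis was possible because no test was run, and the replicate numbers of D53 and B differ. Each group has 1 library, so none could be left out. Unknown depth limits every statement about the size of a score.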
